A study of Arabidopsis thaliana with 128 samples.

Results

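The comparison described here is that of vcs sov seedlings with vcs seedlings of Arabidopsis thaliana before the transcription inhibitor cordycepin (1 mM) was added. Its members are the libraries that the deposited read table labels as vcs sov or vcs at 0 min: 4 of each genotype, so 8 of the 128 libraries of the series. RNA came from whole seedlings grown for 5 d on agar plates at 22 °C in constant light, with 50 to 60 seedlings per genotype and replicate. The replicate numbers are labelled as biological replicates. The vcs sov seedlings are the vcs-7 mutant of VARICOSE in the accession Col-0, which itself carries the sov allele. The vcs seedlings are vcs-7 carrying a SOV transgene from the accession Landsberg erecta. The sov seedlings are Col-0, and WT denotes Col-0 with a SOV transgene of the same name. All 4 genotypes therefore share the endogenous sov allele of Col-0, and vcs sov and vcs differ in the presence of the SOV transgene in a shared vcs-7 background. The number of transgenic lines, and whether vcs and WT carry the same insertion, were not given in the sources used here.

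VARICOSE is a scaffold of the complex that removes the 5′ cap of mRNAs, after which the exoribonuclease XRN4 degrades them. SUPPRESSOR OF VARICOSE (SOV) is a cytoplasmic 3′ to 5′ exoribonuclease of the DIS3L2 family, which acts without the exosome. Arabidopsis responses to drying run through abscisic acid (ABA): receptors of the PYR/PYL family bind the hormone and inhibit clade A protein phosphatases 2C, which frees SnRK2 kinases to activate ABF transcription factors. These factors bind the ABA response element, a promoter sequence with the core ACGTG, upstream of genes for late embryogenesis abundant (LEA) proteins, lipid transfer proteins and others.

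Of the 15 largest increases in vcs sov described below, 6 were on a list of such ABA and dehydration genes, and the promoters shown are those of the 4 that hold the core. The windows of the other 2, LTP3 and LTP4, hold no match. Each runs 5′ to 3′ from 250 bases before to 50 bases after the annotated start, read from the RefSeq annotation of TAIR10.1, and capitals mark ACGTG or its reverse complement CACGT. The windows are chr1:19619474-19619773 (plus strand) for LEA7 (AT1G52690), chr5:26519398-26519697 (minus strand) for RAB18 (AT5G66400), chr2:14146506-14146805 (minus strand) for RD20 (AT2G33380) and chr5:21236771-21237070 (plus strand) for LTI65, also called RD29B (AT5G52300).
LEA7: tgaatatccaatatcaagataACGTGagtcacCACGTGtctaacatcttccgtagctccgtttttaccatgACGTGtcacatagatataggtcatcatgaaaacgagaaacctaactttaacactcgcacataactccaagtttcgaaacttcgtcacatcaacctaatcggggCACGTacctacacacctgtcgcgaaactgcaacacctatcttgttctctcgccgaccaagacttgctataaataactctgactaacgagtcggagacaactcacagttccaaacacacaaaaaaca
RAB18: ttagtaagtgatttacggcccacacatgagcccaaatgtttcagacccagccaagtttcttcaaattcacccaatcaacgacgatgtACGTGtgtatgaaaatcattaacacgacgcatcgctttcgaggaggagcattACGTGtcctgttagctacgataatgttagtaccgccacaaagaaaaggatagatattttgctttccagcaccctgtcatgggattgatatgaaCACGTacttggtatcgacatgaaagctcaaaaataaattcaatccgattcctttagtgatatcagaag
RD20: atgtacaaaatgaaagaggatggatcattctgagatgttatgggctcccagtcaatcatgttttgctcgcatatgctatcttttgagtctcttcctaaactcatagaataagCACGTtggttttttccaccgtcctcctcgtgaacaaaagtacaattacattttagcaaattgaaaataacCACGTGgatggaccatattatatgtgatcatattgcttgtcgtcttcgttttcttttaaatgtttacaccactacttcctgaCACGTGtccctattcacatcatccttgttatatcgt
LTI65: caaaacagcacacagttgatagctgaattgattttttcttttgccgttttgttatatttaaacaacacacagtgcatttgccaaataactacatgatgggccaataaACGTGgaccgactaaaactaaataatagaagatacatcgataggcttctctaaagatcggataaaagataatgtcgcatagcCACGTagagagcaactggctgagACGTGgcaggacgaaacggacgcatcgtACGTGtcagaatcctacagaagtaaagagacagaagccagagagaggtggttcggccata
Counting both strands, and counting a palindromic CACGTG on each, the windows of LEA7, RAB18, RD20 and LTI65 held 5, 3, 5 and 4 matches. These matches are letters in a window, not bound sites.

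The deposited values were RPM: the reads of a gene per M reads in all genes of the library, where M stands for mega. Plastid reads made up 22.5 to 26.5% of them in vcs sov, against 33.9 to 36.7% in vcs, so every level below was rescaled to the reads of nuclear genes alone and is given as nuclear RPM. Depth was 16.6 to 32.8 M reads in genes per library, of which 10.9 to 24.1 M reads were nuclear. A gene with no read in a library could have had up to 3 reads there, which is 0.124 to 0.274 nuclear RPM depending on the library. Such limits and the intervals below cover counting error only. Nuclear reads were 73.5 ± 1.66% of the reads in genes in vcs sov and 63.2 ± 1.32% in vcs (SD, n = 4 each), a difference of 10.2 percentage points with no overlap. A two-sided exact permutation test gave p = 0.0286, the smallest that 4 against 4 allows. The RNA is that of whole seedlings, so fewer cells of a type and less RNA per cell cannot be told apart in any value below. Genes of leaf photosynthesis (RBCS1A) and of root hairs (COW1) were read in all 8 libraries.

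SOV itself (AT1G77680) can be set against the labels within the pair only. It had 247, 274, 232 and 237 nuclear RPM in vcs sov replicates 1 to 4, against 734, 901, 766 and 871 in vcs. No vcs sov library reached the lowest vcs library, and the change was −1.72 log2 (SE 0.15, adjusted p = 3.86e-08). Reads of the endogenous sov allele and of the transgene fall on the same locus and cannot be told apart. In sov, SOV had 29.3 to 48.9 nuclear RPM and in WT 163 to 247, so vcs sov overlapped the upper end of WT while every vcs library was above all others. The level of SOV thus does not show which of the 4 genotypes carry the transgene. VCS (AT3G13300) had 12.4, 11.9, 13.7 and 11.7 nuclear RPM in vcs sov, against 6.85, 6.97, 6.54 and 8.06 in vcs, and the sov and WT libraries lay at 120.0 to 134 and 121 to 158. Both vcs-7 genotypes were thus far below the others for VCS. Within the pair VCS was higher in vcs sov by 0.77 log2 (SE 0.09, adjusted p = 1.67e-06).

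Across the 19343 nuclear genes with at least 1 RPM in a genotype, 5144 (26.6%) were higher in vcs sov than in vcs and 5580 (28.8%) were lower, 55.4% in either direction. In 22.6% of the genes tested all 4 vcs sov libraries were above all 4 vcs libraries, and in 23.4% all were below. All adjusted p-values of gene changes here are Benjamini-Hochberg values of limma on log2(nuclear RPM + 0.5), called at 0.05, and the fold changes of low genes are understated by the added 0.5. Changes of at least 1 log2 were fewer: 1405 genes (7.26%) were higher and 1058 (5.47%) lower. At 4 log2 or more the balance was 30 genes higher and 4 lower. The median change of all genes was −0.02 log2. On RPM as deposited, without the nuclear rescaling, 7945 genes were higher and 3450 lower, with a median of 0.19, so the even split depends on the scale while the changes of several log2 described next do not.

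**Figure D1:**
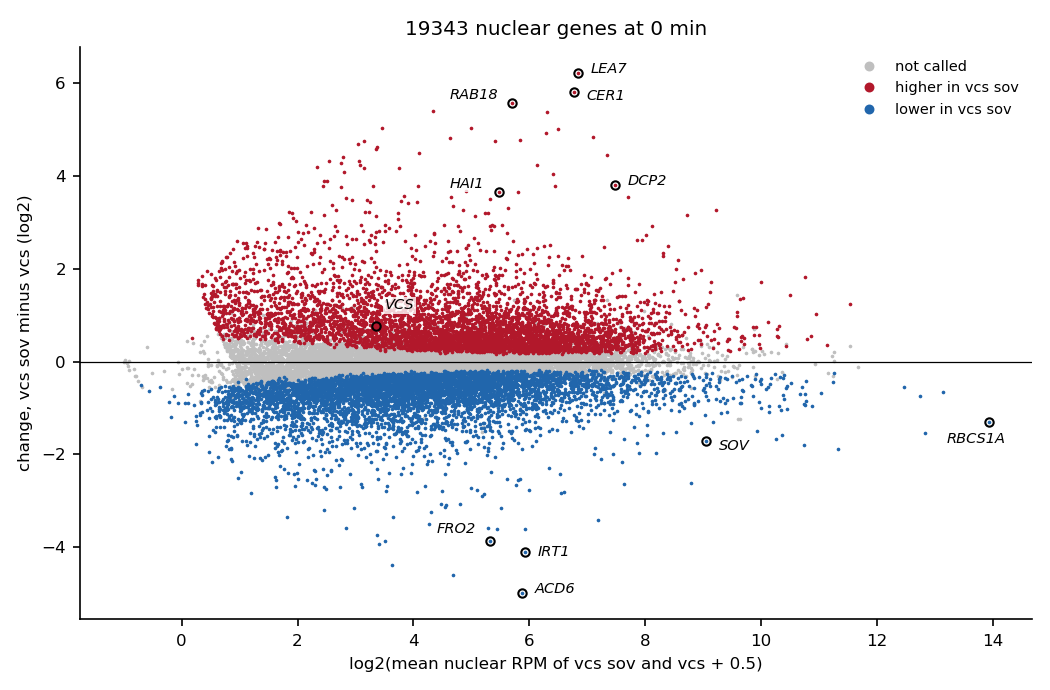
Change at 0 min of each nuclear gene tested, as log2(nuclear RPM + 0.5) in vcs sov minus vcs (vertical axis), against its level, as log2 of the mean nuclear RPM of vcs sov and vcs plus 0.5 (horizontal axis). Coloured points are called genes, and the labelled genes include LEA7 at 6.23, CER1 at 5.82, DCP2 at 3.82 and ACD6 at −4.99.

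The gene with the largest change was LEA7, a LEA protein of seeds and drying tissue. It had 153, 240, 214 and 297 nuclear RPM in vcs sov, against 3.01, 1.39, 3.58 and 2.27 in vcs. Every vcs sov library was far above every vcs library, and the change was 6.23 log2 (SE 0.29, adjusted p = 5.58e-11). RAB18, a dehydrin, had 56.6, 116, 101 and 134 nuclear RPM in vcs sov, against 2.92, 1.14, 1.43 and 1.09 in vcs, a change of 5.58 (SE 0.29, adjusted p = 1.35e-10). RD20, a calcium-binding caleosin, had 121, 173, 126 and 197 in vcs sov, against 3.20, 4.69, 1.48 and 4.11 in vcs, a change of 5.38 (SE 0.36, adjusted p = 1.15e-08). LTI65 was lower in level, with 14.1, 18.4, 21.7 and 23.9 nuclear RPM in vcs sov, against 0.457, 0.127, 0.286 and 0.336 in vcs. That is 1391 reads in the 4 vcs sov libraries and 17 in the 4 vcs libraries, a ratio of 71.4 (95% exact interval 44.4 to 123). In all 4 genes vcs sov replicate 1 was the lowest of its group; that the groups do not overlap was a condition for naming any of the 15 largest changes in each direction.

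The lipid transfer proteins LTP3 and LTP4, neighbouring genes whose products carry lipids in the cell wall, varied several-fold among the vcs sov libraries. LTP3 had 106, 426, 221 and 310 nuclear RPM in vcs sov, against 10.4, 8.05, 4.15 and 9.91 in vcs, a change of 4.85 (SE 0.35, adjusted p = 3.12e-08). LTP4 had 53.6, 245, 99.99 and 209 in vcs sov, against 5.75, 4.56, 2.00 and 3.53 in vcs, a change of 4.94 (SE 0.36, adjusted p = 1.41e-08). The 2 genes are similar in sequence, so reads could be split between them. In sov LTP4 lay at 0 to 0.0878, and in WT no library had a read of it.

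CER1, the enzyme that forms the alkanes of cuticular wax, had the second largest change among the genes with a symbol. It had 152, 226, 172 and 307 nuclear RPM in vcs sov, against 4.38, 2.54, 3.63 and 2.43 in vcs, a change of 5.82 (SE 0.20, adjusted p = 4.07e-12). The sov libraries had 18.9 to 25 and the WT libraries 19.0 to 26.9, so CER1 was above them in vcs sov and below them in vcs. ORP4C, a protein of the oxysterol-binding family that carries lipids between membranes, had the same order. It had 76.4, 52.0, 56.8 and 59.9 in vcs sov, against 1.37, 1.39, 1.57 and 1.09 in vcs, with 2.72 to 10.4 in sov and 2.73 to 5.05 in WT. WSD1, a wax ester synthase, had 5.48, 13.9, 9.61 and 20.2 nuclear RPM in vcs sov, against 0.0913, 0.0634, 0.143 and 0.0839 in vcs. The vcs values rest on 6 reads, against 920 in vcs sov, a ratio of 134 (95% exact interval 61.2 to 366).

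**Figure D2:**
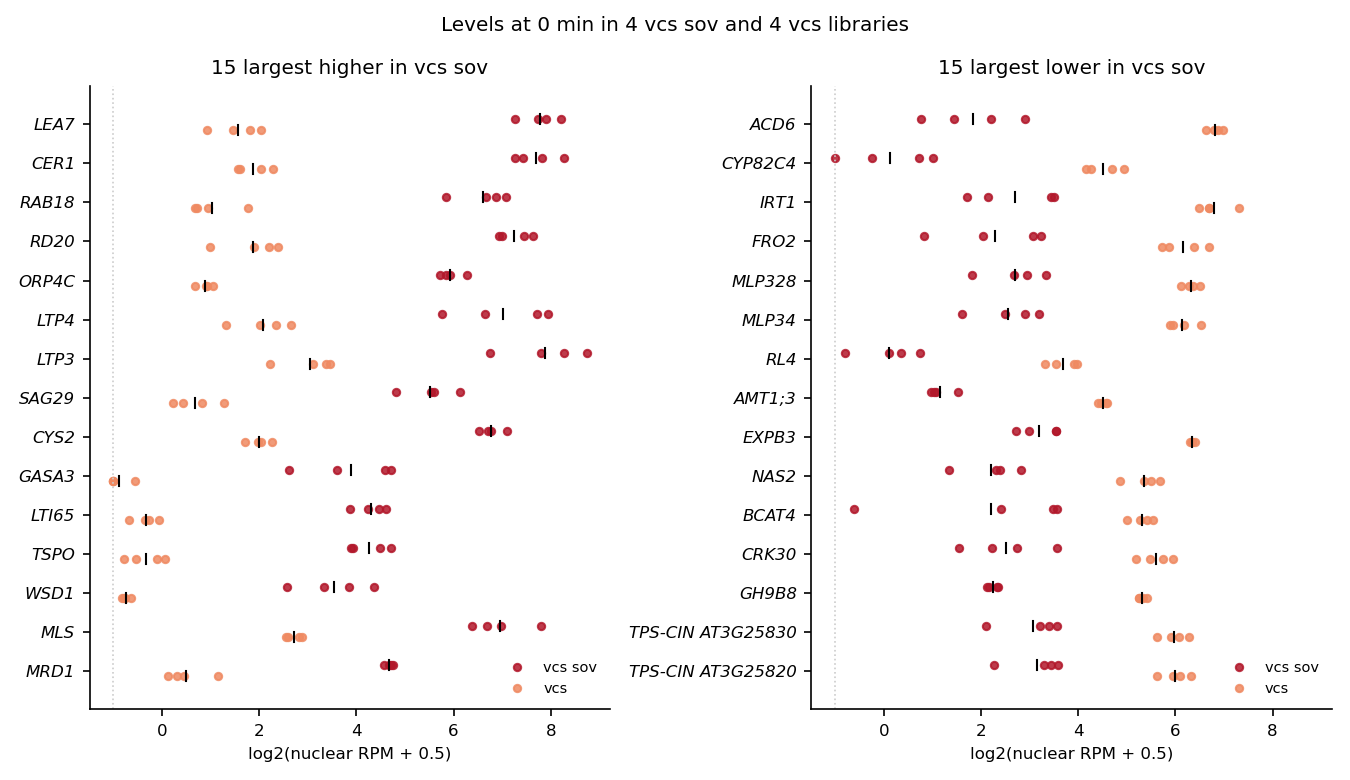
Levels at 0 min of the 15 genes with the largest increases and the 15 with the largest decreases among called genes with a symbol, as log2(nuclear RPM + 0.5). Each dot is a library of vcs sov (red) or vcs (orange), the black tick is the mean of 4 log2 values and the dotted line marks 0 reads; genes whose groups overlap were left out by the rule that chose these. LEA7 spans 153 to 297 nuclear RPM in vcs sov and 1.39 to 3.58 in vcs.

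The other genes among the 15 largest increases differed more in function. SAG29, a sugar transporter first known from senescing leaves, had 27.6 to 69.6 nuclear RPM in vcs sov, against 0.668 to 1.92 in vcs. CYS2, a cystatin that inhibits proteases, had 90.8 to 137 in vcs sov, against 2.77 to 4.29 in vcs. TSPO, a stress-induced membrane protein, had 14.2 to 25.7 in vcs sov, against 0.0839 to 0.548 in vcs, and rests on 1326 reads against 19. GASA3, a gibberellin-regulated peptide, had 5.64 to 25.7 nuclear RPM in vcs sov, while only vcs replicate 1 had reads in vcs (2 reads, 0.183). The ratio of its reads, 1229 to 2, was 536 with a 95% exact interval of 148 to 4433. MLS, malate synthase of the glyoxylate cycle, was highest in vcs sov replicate 1 at 223, with 82.9, 126 and 102 in the others, against 5.35 to 6.88 in vcs. MRD1 varied least of these, with 23.1 to 26.4 in vcs sov, against 0.588 to 1.71 in vcs. Of the genes with no symbol in the annotation, which the naming rule leaves out, AT2G47780, AT5G05220 and AT3G02480 had changes of 5.40, 5.03 and 5.01 log2 and were chosen here after their values were seen.

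Of 26 tested genes of a list of ABA and dehydration response, 20 were higher in vcs sov and 0 lower, with a median change of 1.76 log2. The members and lists used here were drawn up with earlier results of these data known, so their counts are a description. They are to be read beside the shares of all genes tested, 26.6% higher and 28.8% lower. A count near these shares does not set a list apart. Without vcs replicate 3 or vcs sov replicate 3, 1 member was called lower. COR15A, a chloroplast protectant of cold and drying, had 78.8 to 226 nuclear RPM in vcs sov and 3.87 to 15.3 in vcs, a change of 3.78. RD29A, a neighbour of LTI65 that also answers to cold, was at 93.1 to 133 in vcs sov and 94.3 to 150 in vcs, a difference of −0.06 (SE 0.35, adjusted p = 0.890). COR15B, next to COR15A, was at 0.838 to 1.62 in vcs sov and 1.15 to 3.36 in vcs (adjusted p = 0.0646). Adjacent genes thus differed in this list, and these 3 genes were picked out after their values were seen.

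The 8 tested clade A protein phosphatases 2C were all higher in vcs sov, with a median of 1.57 log2. HAI1 (AT5G59220) had 58.9, 118, 54.5 and 100 nuclear RPM in vcs sov, against 5.94, 5.77, 6.35 and 5.12 in vcs, and 0.887 to 1.48 in sov and WT together. Its change was 3.65 (SE 0.20, adjusted p = 1.09e-10). HAI3 rose by 3.27 and HAI2 by 3.03, with at most 1.19 nuclear RPM in any vcs library, and ABI2 rose by 1.81. Of the ABA receptors 6 of 9 were lower, 1 was higher, and the median was −0.66. PYL6 had 4.19 to 15.3 nuclear RPM in vcs sov and 41.1 to 75.3 in vcs, a change of −2.77. PYR1 and RCAR3 (PYL8) fell by 0.83 and 0.80. PYL7 was the receptor that rose, with 23.5 to 36.4 in vcs sov and 10.7 to 12.8 in vcs.

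Between receptors and target genes, 5 of 8 tested ABA kinases and transcription factors rose and 1 fell, with a median of 0.48. ABF3 had 64.6 to 71.8 nuclear RPM in vcs sov and 16 to 23 in vcs, a change of 1.8, and the kinase OST1 rose by 1.06. ABF1 was the member that fell, with 14.5 to 17.0 in vcs sov and 20.8 to 35.6 in vcs. ABI3, a regulator of seed maturation, was low in both, at 0.977 to 2.54 in vcs sov and 0.239 to 1.1 in vcs, with a change of 0.99. Of 11 genes that make or break down ABA 7 were higher and 0 lower, with a median of 0.73, and the other 4 were not called. NCED3, the enzyme that limits ABA synthesis in drying leaves, had 114 to 194 nuclear RPM in vcs sov and 25.5 to 59.6 in vcs, against means of 6.69 in sov and 7.82 in WT. CYP707A1, which inactivates ABA, rose by 1.68 (172 to 206 in vcs sov, against 43.9 to 79.9 in vcs). ABA1, an early step of the pathway, rose by 1.48.

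Seed storage and oil body genes were mostly under the detection filter, with 7 of 20 tested. Of these 7, 6 were higher and 0 lower, and the median was 1.74. A gene that was high in vcs sov alone could pass the filter through that genotype. For such genes a higher call was likely from the start, so these counts and the median give no direction for the list. LEA4-5 was the most abundant, at 82.0 to 120 nuclear RPM in vcs sov and 5.62 to 9.86 in vcs, a change of 3.65. OLEO2, an oleosin of oil bodies, had 1.61 to 8.51 in vcs sov and 0 to 0.365 in vcs. The summed level of all listed seed genes was 101 to 144 in vcs sov and 8.48 to 20.9 in vcs, most of it LEA4-5.

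**Figure D3:**
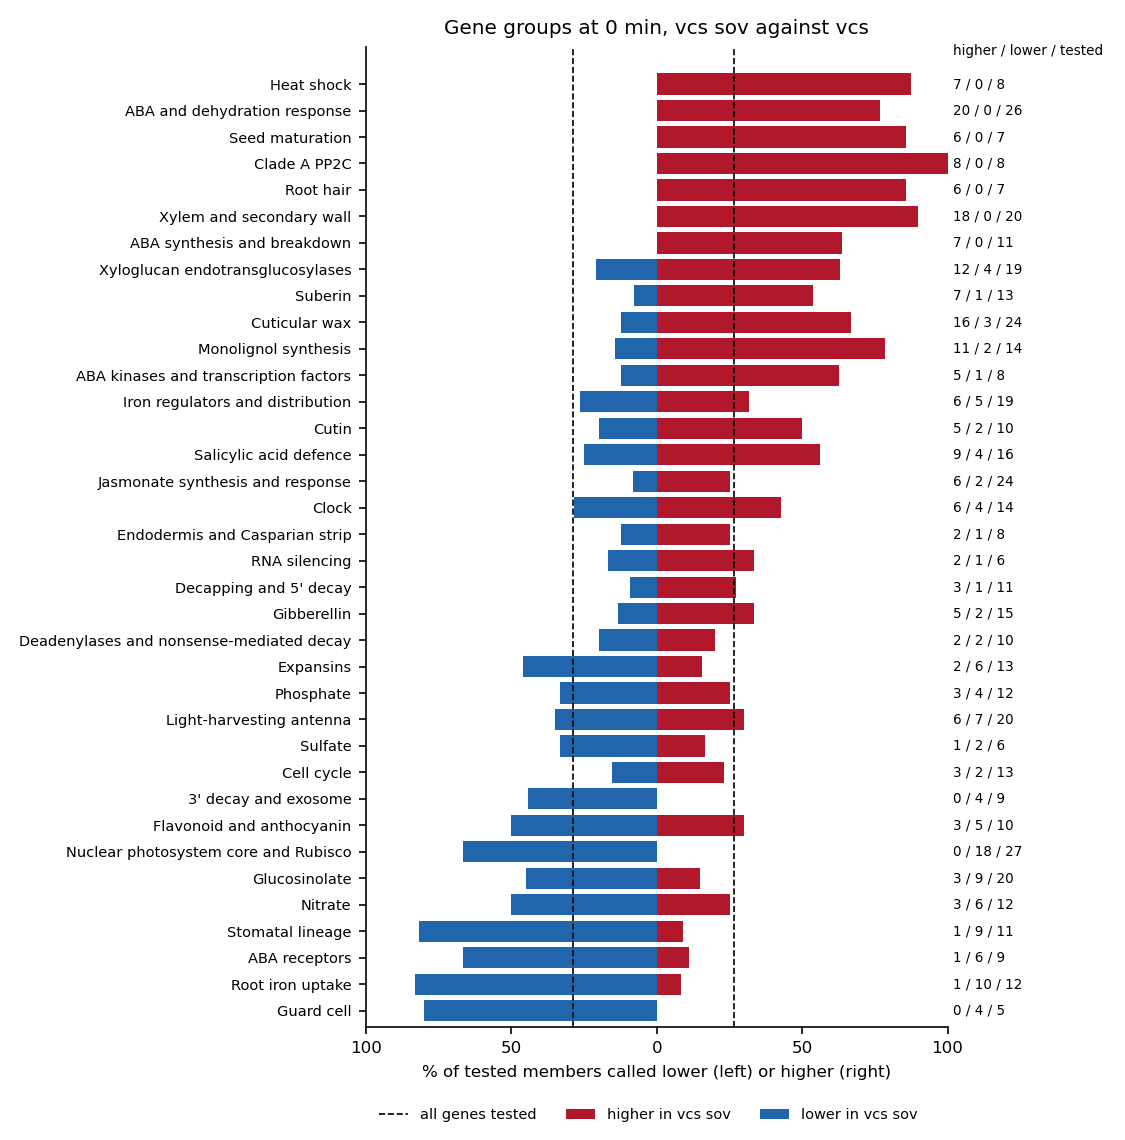
Share of the tested members of each gene list called lower (left, blue) or higher (right, red) in vcs sov than in vcs at 0 min, for lists with at least 5 members tested, with the counts at the right. The dashed lines are the shares of all genes tested, 28.8% lower and 26.6% higher. Members of the seed maturation list could pass the filter through vcs sov alone, which favours higher calls.

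Genes of the surface lipids changed in both directions. Of 24 tested wax genes 16 were higher and 3 lower (median 0.52), of 10 cutin genes 5 were higher and 2 lower (median 0.45), and of 13 suberin genes 7 were higher and 1 lower (median 0.56). Beside CER1 and WSD1, KCS2, which elongates fatty acids, had 71.1 to 118 nuclear RPM in vcs sov and 17.37 to 26.2 in vcs. LACS1, which activates long-chain fatty acids for wax and cutin, went the other way, with 13.3 to 18.0 in vcs sov and 44.8 to 88.6 in vcs (−2.06, SE 0.19, adjusted p = 1.29e-07). CER7, an exosome subunit needed for normal CER3 expression, fell by 0.39, but was not called on RPM as deposited (−0.17). Of the cutin genes, CYP86A4 rose by 1.44, BDG1 by 1.16, HTH by 0.96 and GPAT4 by 0.85. Of the suberin genes, the fatty acyl reductase FAR1 rose by 2.37, the regulator MYB41 by 1.91, the feruloyl transferase RWP1 (ASFT) by 1.41 and GPAT5 by 1.40. FAR1 had 55.6 to 101 nuclear RPM in vcs sov and 11.8 to 18.0 in vcs.

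Most genes of root iron uptake fell: of 12 tested genes 10 were lower and 1 higher, with a median of −1.08. Arabidopsis roots acidify the soil, reduce ferric iron with FRO2 and import ferrous iron with IRT1. IRT1 (AT4G19690) had 2.78, 3.91, 10.8 and 10.3 nuclear RPM in vcs sov, against 103, 104, 89.8 and 159 in vcs, a change of −4.10 (SE 0.38, adjusted p = 7.48e-07). FRO2 had 1.27, 3.63, 8.92 and 7.88 in vcs sov, against 82.5, 52.4, 58.1 and 103 in vcs, a change of −3.87 (SE 0.46, adjusted p = 9.28e-06). CYP82C4, which hydroxylates an iron-mobilising coumarin, had 0, 0.349, 1.51 and 1.16 in vcs sov, against 30.2, 18.7, 17.5 and 25.4 in vcs. The groups were apart in all 3 genes, and within vcs sov replicates 1 and 2 were below replicates 3 and 4. In sov the 3 genes lay at 72.7 to 144, 76.5 to 145 and 10.8 to 33.6, and in WT at 56.0 to 101, 54.0 to 112 and 11.4 to 30.2, so the vcs libraries were within or near those ranges.

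F6'H1 (AT3G13610) of the uptake list, which makes scopoletin, had 2.61 to 3.13 nuclear RPM in vcs sov and 15.4 to 18.1 in vcs, a change of −2.32, and AT3G12900 had no read in any vcs sov library and 0.317 to 3.47 in vcs. IRT2 was the member of the uptake list that was higher, with 3.49 to 5.24 in vcs sov and 2.01 to 3.61 in vcs (0.57, adjusted p = 0.0210), and 0 were higher without vcs replicate 4 or vcs sov replicate 2 or 3. The genes that regulate or distribute iron were mixed, with 6 of 19 higher and 5 lower. Ferritins store iron in plastids, and FER1, FER3 and FER4 fell by 2.16, 1.83 and 1.72, with FER1 at 37.7 to 112 nuclear RPM in vcs sov and 277 to 366 in vcs. NAS2, a nicotianamine synthase that makes an iron chelator, had 4.77, 2.02, 4.46 and 6.56 in vcs sov, against 45.0, 28.6, 40.2 and 51.1 in vcs, a change of −3.14 (SE 0.34, adjusted p = 2.28e-06). NAS4, of the same family, was higher in vcs sov, at 20.6 to 86.8 against 16.1 to 26.7 in vcs (0.93, adjusted p = 0.0229). IRT2, NAS4 and the unnamed AT3G12900 were picked out after their values were seen.

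ACD6 (AT4G14400), an ankyrin membrane protein that promotes salicylic acid defence, had the largest decrease. It had 1.19, 4.12, 7.01 and 2.24 nuclear RPM in vcs sov, against 98.8, 125, 118 and 110 in vcs, a change of −4.99 (SE 0.37, adjusted p = 7.50e-08). The sov libraries were at 13.4 to 36.3 and the WT libraries at 27.8 to 32, so vcs was above them and vcs sov below them. The salicylic acid list as a whole did not go down: of 16 tested genes 9 were higher and 4 lower, with a median of 0.37. PBS3, an enzyme of salicylic acid synthesis, had 8.28 to 28.2 in vcs sov and 0.764 to 1.64 in vcs, a change of 3.24, while PR5, an antimicrobial thaumatin-like protein, had 0.397 to 1.22 in vcs sov and 8.56 to 9.82 in vcs, a change of −2.71. WRKY54 fell by 1.53. In the jasmonate list 6 of 24 genes were higher and 2 lower, but 13 were higher without vcs replicate 1 and 2 without any of vcs replicates 2 and 3 or vcs sov replicates 2 and 4. Without any of vcs replicates 1, 2 and 4 or vcs sov replicates 1, 2 and 4 only 1 was lower. CORI3, a jasmonate-induced lyase, had 363 to 913 nuclear RPM in vcs sov and 75.7 to 172 in vcs, with means of 6.25 in sov and 8.97 in WT. VSP1 fell by 1.08.

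Other decreases came from plant defence chemistry and the cell wall. BCAT4, which starts methionine-derived glucosinolate synthesis, had 0.159, 4.82, 11.3 and 10.7 nuclear RPM in vcs sov, against 31.8, 42.1, 38.3 and 46.1 in vcs (−3.10, SE 0.68, adjusted p = 0.00182). Of 20 tested glucosinolate genes 9 were lower and 3 higher, with a median of −0.44. MAM1 ranged from 1.43 to 67.5 in vcs sov, with 127 to 163 in vcs, and CYP79F1 from 0.556 to 43.3, with 60.3 to 99.7 in vcs. In these 3 genes vcs sov replicate 1 was the lowest library by far. Leaving it out took the change of MAM1 to −1.69, against −2.83 with all libraries, and that of CYP79F1 to −1.44, against −2.65, and the list then had 5 higher genes in place of 3. Neither was called when only the 8 libraries of vcs sov and vcs were fitted (adjusted p = 0.0568 and 0.0880). The 2 loci of TPS-CIN, which makes the monoterpene cineole, are near-identical copies that share reads. AT3G25830 had 3.81, 10.12, 11.4 and 8.80 in vcs sov, against 48.6, 59.9, 77.2 and 66.8 in vcs, and AT3G25820 had 4.29 to 11.6 against 48.8 to 79.9.

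EXPB3, a beta-expansin that loosens cell walls, had 6.12, 11.2, 11.2 and 7.47 nuclear RPM in vcs sov, against 81.0, 84.1, 78.1 and 80.8 in vcs, a change of −3.14 (SE 0.18, adjusted p = 5.74e-10). GH9B8, a glycosyl hydrolase of the cellulase family, was the tightest of the decreases, with 4.53, 3.98, 4.63 and 3.86 in vcs sov, against 37.7, 42.5, 37.4 and 40.1 in vcs (−3.07, SE 0.12, adjusted p = 4.07e-12). Of 13 tested expansins 6 were lower and 2 higher, and EXPA15 had 3.32 to 4.05 in vcs sov and 16.1 to 18.8 in vcs, while EXPA11 rose by 1.15. The median of the expansins, −0.02, turned to 0.18 on RPM as deposited. Xyloglucan endotransglucosylases, which cut and rejoin a wall polymer, went mostly up, with 12 of 19 higher, 4 lower and a median of 0.67. XTR6 (XTH23) had 313 to 545 in vcs sov and 45.3 to 91.9 in vcs, and XTH19 had 128 to 183 in vcs sov and 30.4 to 57.5 in vcs. The remaining large decreases were in MLP328 (−3.62) and MLP34 (−3.58), of the major latex protein family, in RL4 (−3.58), of a family of small MYB-like proteins, in the ammonium transporter AMT1;3 (−3.36) and in the receptor-like kinase CRK30 (−3.08).

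DCP2 (AT5G13570), the enzyme that removes the mRNA cap in the complex that VCS scaffolds, had the largest change of the decay genes listed. It had 288, 282, 430 and 332 nuclear RPM in vcs sov, against 21.0, 22.9, 25.3 and 22.1 in vcs, a change of 3.82 (SE 0.11, adjusted p = 5.00e-14). The sov libraries had 16.5 to 18.6 and the WT libraries 14.8 to 16. All vcs libraries were above these by a small margin, and all vcs sov libraries were far above vcs. No other member of the decapping list changed by as much as 0.4 log2. Of 11 tested genes 3 were higher and 1 lower, against 26.6% higher and 28.8% lower of all genes tested. VCR, a close relative of VCS, had 84.4 to 94.5 in vcs sov and 71.4 to 73.9 in vcs (0.28), AT2G45810, of the DHH1-like helicases, rose by 0.26, and the exonuclease XRN4 was not called (0.09, adjusted p = 0.380). DCP1 was called lower by a narrow margin (−0.27, adjusted p = 0.0470) and was not called without vcs replicate 1, 3 or 4 or without vcs sov replicate 2, 3 or 4, with −0.19 to −0.30; without vcs sov replicate 1 the list had 2 lower genes. It was not called either by edgeR, by DESeq2, with centring, with no filter or in the 8 libraries alone (adjusted p = 0.0529 to 0.0798), or on RPM as deposited (−0.05, adjusted p = 0.725).

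Of 9 tested genes of the exosome and 3′ decay 4 were lower and 0 higher, with a median of −0.24. The exosome subunit RRP4 had 5.08 to 8.38 nuclear RPM in vcs sov and 15.0 to 18.1 in vcs (−1.32), EMB2763 (RRP44A), its nuclear exonuclease, fell by 0.70 and the subunit RRP41 by 0.63. Among deadenylases and nonsense-mediated decay factors, 2 of 10 were higher and 2 lower: AT1G02080, the scaffold NOT1, had 365 to 413 in vcs sov and 227 to 261 in vcs, AT3G58580 rose by 0.31, and the poly(A) ribonuclease AHG2 fell by 0.51. Genes of RNA silencing, which makes small RNAs from aberrant transcripts, were split, with 2 of 6 higher and 1 lower. Of all genes tested 26.6% were higher and 28.8% lower, and the few genes of these 2 lists were not tested against that. RDR6, the polymerase that copies such transcripts, had 14.2 to 19.4 nuclear RPM in vcs sov and 34.2 to 36.0 in vcs (−1.12, SE 0.09, adjusted p = 1.72e-08), and the dicers DCL4 and DCL2 rose by 0.65 and 0.36.

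Marker genes of cell types moved with the genotype, in both directions. Of 20 tested genes of xylem and secondary wall 18 were higher in vcs sov and 0 lower, with a median of 1.07, and 1 was called lower without vcs replicate 3. The summed level of the list was 613 to 1114 nuclear RPM in vcs sov and 403 to 444 in vcs, and 1 listed gene had no read in vcs sov. VND7, the transcription factor that starts vessel formation, had 7.23, 8.59, 8.51 and 12.2 in vcs sov, against 3.93, 3.11, 4.01 and 3.02 in vcs (1.25, SE 0.21, adjusted p = 5.52e-05). Its target MYB46 rose by 1.56, and the nucleases BFN1 and RNS3, which act as vessels die, rose by 1.96 and 1.28. Of 14 genes of monolignol synthesis, the precursors of lignin, 11 were higher and 2 lower (median 0.51). PAL4 had 127 to 243 in vcs sov and 60.6 to 70.0 in vcs, and CCoAOMT1 had 900 to 1110 in vcs sov and 495 to 558 in vcs. The branch to flavonoids had 3 of 10 genes higher and 5 lower (median −0.42): FLS1, which makes flavonols, fell by 1.90, while DFR of the anthocyanin arm was called higher by 1.47 and was not called without vcs replicate 1 or 3 or vcs sov replicate 1 (1.07 to 1.35), or in the 8 libraries alone (adjusted p = 0.0547). Without vcs replicate 3 or vcs sov replicate 1 only 1 flavonoid gene was higher.

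Of 11 tested genes of the stomatal lineage 9 fell and 1 rose, with a median of −0.60. On RPM as deposited 6 fell and 1 rose, with a median of −0.39. SPCH, which starts the lineage, had 1.75, 0.559, 1.22 and 1.12 nuclear RPM in vcs sov, against 4.02, 5.26, 5.92 and 3.11 in vcs (−1.63, SE 0.26, adjusted p = 3.99e-05). The secreted signal EPF2 fell by 1.71 and the receptor TMM by 1.46. In the guard cell list 4 of 5 genes were lower and 0 higher. The potassium channel KAT1 had 4.05 to 6.60 in vcs sov and 20.9 to 32.8 in vcs (−2.21), KAT2 fell by 1.43 and AT1G22690 by 1.34, whereas the anion channel SLAC1 was not called (−0.12, adjusted p = 0.666). MYB60 fell by 0.56, but was not called when any of vcs replicates 1 to 3 or vcs sov replicate 2 was left out, and its change was −0.36 without the last. It was also not called on RPM as deposited (−0.35, adjusted p = 0.187) or with no filter on low values (adjusted p = 0.0872). The summed levels were 127 to 139 in vcs sov and 137 to 151 in vcs for the stomatal lineage, and 36.4 to 47.1 in vcs sov and 96.9 to 111 in vcs for guard cells. For the stomatal lineage these ranges overlapped, and sov and WT had 113 to 132 and 108 to 124, not above vcs sov. For guard cells sov and WT had 121 to 135 and 113 to 135.

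Other markers were higher, lower or flat. Of 7 root hair genes 6 were higher and 0 lower (median 1.27), and their summed level was 60.7 to 69.5 nuclear RPM in vcs sov and 20.4 to 30.0 in vcs. COW1, a phospholipid transfer protein of growing hairs, rose by 1.73, with 8.34 to 11.2 in vcs sov and 1.92 to 4.25 in vcs, and PRP3, EXPA7 and EXPA18 rose by 1.43, 1.41 and 1.27. GL2, which marks cells that form no root hair, fell by 1.59, and of the 4 tested genes of its list of epidermis and trichomes 1 was higher and 2 lower. Of 4 tested phloem genes 3 were lower and 0 higher, with sums of 80.6 to 136 in vcs sov and 142 to 161 in vcs, and the regulator APL fell by 0.92. The endodermis list had 2 of 8 genes higher and 1 lower and sums of 128 to 168 in vcs sov and 117 to 124 in vcs. The 2 tested meristem genes, KNAT1 and STM, rose by 0.81 and 0.71, and WOX5 and BRN1, the 2 tested root tip genes, were not called. Of 13 cell cycle genes 3 were higher and 2 lower, against 26.6% higher and 28.8% lower of all genes tested. The single calls of these small lists (1 lower in the endodermis, 1 higher in the epidermis, 1 of the 2 lower cell cycle genes) were lost when a library was left out, in turn 6, 3 and 5 of the 8. The part that these cell types have in the changes described above was not tested.

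Of 27 tested nuclear genes of the photosystem cores and Rubisco 18 were lower and 0 higher, with a median of −0.43. On RPM as deposited 12 were lower and 2 higher, with a median of −0.22. The small subunits of Rubisco RBCS1B, RBCS2B, RBCS3B and RBCS1A fell by 1.89, 1.8, 1.53 and 1.31, and RBCS1A had 7429 to 10789 nuclear RPM in vcs sov and 18910 to 28922 in vcs. Without vcs replicate 1 or vcs sov replicate 1, 1 gene of the list was called higher. Of 20 light-harvesting antenna genes 6 were higher and 7 lower, with a median of −0.13 that turned to 0.09 on RPM as deposited. LHCB2.2 had 497, 537, 638 and 605 in vcs sov, against 75, 95.3, 83.9 and 162 in vcs (2.51, SE 0.28, adjusted p = 2.75e-06), and LHCB2.1 and LHCB2.3 rose by 2.00 and 1.35. LHB1B1, of the LHCB1 family, had 485 to 680 in vcs sov and 1387 to 2385 in vcs (−1.67). The members of each family are similar in sequence, so reads could be split between them. In sov and WT, LHCB2.2 had 639 to 1698 and 830 to 1240, which places vcs sov between vcs and those genotypes. That place rests on a narrow gap, with 638 in vcs sov replicate 3 and 639 in sov replicate 4.

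The clock gene CCA1, a MYB factor expressed at dawn, also lay in vcs sov between vcs and the sov and WT libraries. It had 68.5, 67.9, 62.4 and 68.9 nuclear RPM in vcs sov, against 19.9, 15.8, 16.9 and 12 in vcs, while sov had 125 to 172 and WT 118 to 150. The change was 2.04 (SE 0.13, adjusted p = 6.73e-10). Its partner LHY rose by 1.56, with 112 to 150 in vcs sov and 29.7 to 70.0 in vcs, whereas PRR3 fell by 1.75. In the whole clock list 6 of 14 genes were higher and 4 lower. Heat shock genes mostly rose, with 7 of 8 higher, 0 lower and a median of 2.25. HSP17.6A had 8.66 to 16.4 in vcs sov and 0.252 to 4.75 in vcs, and HSP17.6II, HSP21 and HSP17.4 rose by 2.57, 2.37 and 2.33, while HSP101 was not called (0.34, adjusted p = 0.240).

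In the lists of other nutrients, genes were called in both directions, as were all genes tested, with 26.6% higher and 28.8% lower. The phosphate and sulfate counts lie near these shares. The nitrate list had 3 of 12 genes higher and 6 lower: NRT1.8, which unloads nitrate from the xylem, rose by 1.61, and NRT1.1, a transporter and sensor, fell by 1.06. The phosphate list had 3 of 12 higher and 4 lower, with the transporter PHT1;1 at 30.1 to 41.5 nuclear RPM in vcs sov and 56.5 to 77.6 in vcs. In the sulfate list 1 of 6 was higher and 2 lower: SULTR1;2 had 20.6 to 28.5 in vcs sov and 60.8 to 108 in vcs (−1.89), and LSU1 rose by 1.83. Leaving out vcs replicate 2 or 3 or vcs sov replicate 1 or 4 left 1 lower gene, and leaving out vcs sov replicate 1 gave 2 higher. The gibberellin list had 5 of 15 higher and 2 lower, with GA2OX8, which inactivates gibberellins, at 0.318 to 1.22 in vcs sov and 3.86 to 6.03 in vcs. Without vcs replicate 2 or 3 or vcs sov replicate 4 only 1 gibberellin gene was lower. GASA6 rose by 1.33 and GID1B, a gibberellin receptor, by 0.85. The medians of the phosphate and sulfate lists, −0.09 and −0.14, turned positive on RPM as deposited (0.13 and 0.07).

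Of 122 tested genes annotated as lncRNA, 47 were lower in vcs sov and 9 higher, with a median of −0.24, and of 26 snoRNA genes 11 were lower and 0 higher, with a median of −0.52. AT4G17098, the lncRNA with the largest decrease, averaged 2.81 ± 0.683 nuclear RPM in vcs sov and 11.4 ± 1.39 in vcs (SD, n = 4 each). Of 11 miRNA loci 7 were higher and 1 lower. These libraries were depleted of rRNA and hold fragments of long RNAs, so the reads come from primary transcripts or precursors, not from mature miRNAs. MIR408 and MIR398c, whose miRNAs lower copper proteins, averaged 9.43 ± 1.68 and 39.1 ± 8.02 in vcs sov, against 1.78 ± 0.524 and 14.2 ± 4.33 in vcs. Whether reads were counted by strand was not given in the sources used here, so reads of a non-coding gene and of a gene on the other strand cannot be told apart. The named loci of this paragraph were chosen after their values were seen.

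The 8 sov and WT libraries place these changes. In sov and WT, which carry VCS, few genes differed past the threshold: for sov minus WT limma called 2 genes higher (0.0103%) and 6 lower (0.031%), 0.0414% in either direction, with 664 genes at an unadjusted p under 0.05, and edgeR called 1 higher and 6 lower. SOV itself averaged 818 nuclear RPM in vcs and 202 in WT, so the transgene-bearing genotypes of the 2 pairs differed in SOV level. The difference between the pairs, vcs sov minus vcs less sov minus WT, was called higher for 3699 genes (19.1%) and lower for 4068 (21%). For sov minus WT the 15 genes with the largest increases had −0.65 to 0.63 log2 and the 15 with the largest decreases −0.32 to 0.43; since they were chosen by vcs sov minus vcs, a term of the interaction, their interaction values are a description. DCP2 had an interaction of 3.65, LEA7 of 6.68, CER1 of 5.84 and ACD6 of −4.66. For SOV the interaction was 0.58 (adjusted p = 0.0346): it fell by 2.3 log2 in sov relative to WT and by 1.72 in vcs sov relative to vcs.

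**Figure D4:**
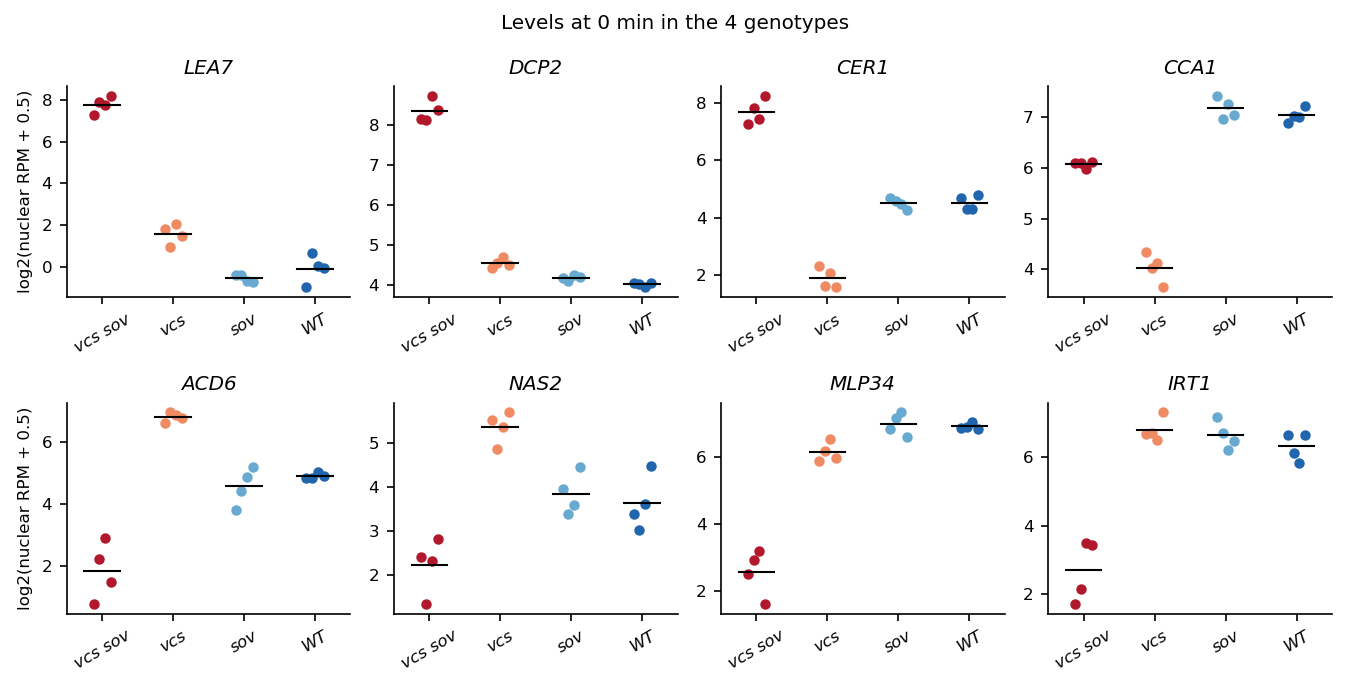
Levels of 8 genes in the 4 libraries of each genotype at 0 min, as log2(nuclear RPM + 0.5) on an axis of its own for each gene, with a line at the mean of the 4 log2 values. LEA7 and DCP2 are highest in vcs sov, CER1 and CCA1 are lowest in vcs, ACD6 and NAS2 are highest in vcs, and MLP34 and IRT1 are lowest in vcs sov.

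The order of the 4 genotypes divided the called genes into kinds. Of the 5144 higher genes, 1545 (30.0%) were graded, with every vcs sov library above every vcs library and every vcs library above all sov and WT libraries, and LEA7, RAB18, LTP3, LTP4, CYS2, HAI1, DCP2 and VND7 were among them. In a further 1996 (38.8%) vcs sov was above all other libraries while vcs overlapped sov and WT. In 58 genes (1.13%), CER1 and ORP4C among them, vcs sov was above and vcs below sov and WT. In 50 genes (0.972%), such as CCA1, LHCB2.2 and VCS, vcs sov lay between vcs and the higher sov and WT. In 19.3% of all genes tested vcs sov was above the other 12 libraries. Of the 5580 lower genes, 718 (12.9%) were graded downwards, MLP34 among them, and in 1880 (33.7%) vcs sov alone was below the rest. In 96 (1.72%) vcs sov was below and vcs above sov and WT; ACD6, NAS2, EXPB3, GH9B8 and both TPS-CIN loci were of this kind. In 729 (13.1%) vcs was above the rest while vcs sov overlapped sov and WT, as for SOV. Of all genes tested 7.99% were graded upwards. Of the 26 tested genes of the ABA and dehydration list 14 were, of the 8 phosphatases 7 and of the 20 xylem genes 10. Other lists with mostly higher calls had fewer, with 2 of the 24 wax genes, 1 of the 7 root hair genes and 3 of the 8 heat shock genes. Grading requires a higher call, so lists with many higher genes are better set beside the 30.0% of the higher genes. The rest of the called genes had other or overlapping orders.

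A second set of 8 libraries repeats the contrast 7.5 min after cordycepin, an adenosine analogue that stops transcription, was added to seedlings of the same genotypes. These libraries carry the same replicate numbers. They may come from the same batches of seedlings as those of 0 min, and may not be independent of them. At 7.5 min 4940 genes (25.5%) were higher in vcs sov and 5976 (30.9%) lower. Of the 5144 genes higher at 0 min 4403 (85.6%) were called higher again and 0 lower, and of the 5580 lower genes 5047 (90.4%) were called lower again and 0 higher. LEA7 had 6.01 log2 at 7.5 min against 6.23 at 0 min, CER1 5.80 against 5.82, DCP2 3.79 against 3.82, IRT1 −4.21 against −4.10 and ACD6 −5.72 against −4.99. All 30 of the largest changes kept their direction and were called.

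**Figure D5:**
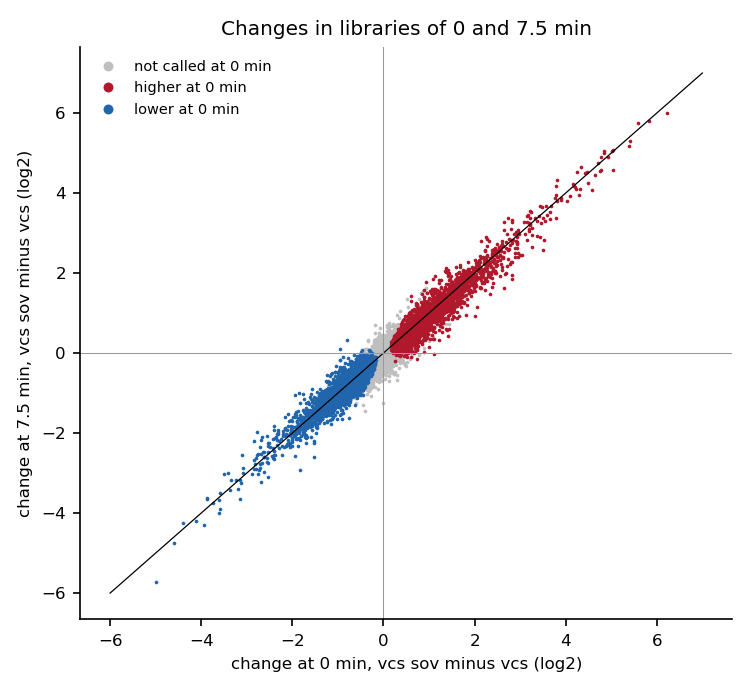
Change of each gene between vcs sov and vcs at 7.5 min after cordycepin (vertical axis) against the change at 0 min (horizontal axis), both in log2 nuclear RPM, with a line of equality. The largest increases and decreases lie near the line, with LEA7 at 6.23 and 6.01 and ACD6 at −4.99 and −5.72.

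Whether the genes that differ at 0 min also differ in how fast their share of nuclear RNA falls after cordycepin was read from slopes of log2 nuclear RPM over 7.5 to 120 min, in 16569 genes with at least 2 RPM in both genotypes. A positive difference means a slower fall, or a steeper rise, in vcs sov. In all, 2335 genes (14.1%) had a higher slope in vcs sov and 212 (1.28%) a lower one. Among the genes higher at 0 min the shares were 14.8% and 0.653%, among the lower genes 13.5% and 3.1%, and among the genes not called 14.1% and 0.513%. The median differences were 0.08, 0.05 and 0.08 log2 per hour for the 3 classes. DCP2, with its large difference in level, had a slope difference of 0.10 log2 per hour (adjusted p = 0.491). LTP4 had 0.36 (adjusted p = 0.0191), ACD6 0.46 (adjusted p = 0.0354) and CRK30 0.52 (adjusted p = 0.0186). The share of LTP4 did not fall, with mean slopes of 0.40 in vcs sov and 0.04 in vcs. Those of ACD6 were −0.34 and −0.80, and those of CRK30 −0.60 and −1.12. At 0 min ACD6 and CRK30 had only 1.19 to 7.01 and 2.41 to 11.4 nuclear RPM in vcs sov, where the added 0.5 flattens a slope. These slopes are relative to all nuclear RNA, and with each library centred on its median the counts were 557 higher (3.36%) and 911 lower (5.5%). Centring also turned the class medians negative, to −0.02 for the genes higher at 0 min (129 slopes higher, 144 lower) and −0.05 for the lower genes (189 higher, 507 lower). The calls of LTP4, ACD6 and CRK30 were lost under centring (adjusted p = 0.107, 0.0873 and 0.0627), while EXPB3 and CCA1 were then called lower (adjusted p = 0.0251 and 0.0194). Leaving out vcs replicate 2 or 4 or vcs sov replicate 2 or 4 took the count of higher slopes to 1512, 1502, 1329 or 1534, and leaving out the second replicate of vcs or of vcs sov took that of lower slopes to 117 or 106.

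Gene structure and promoter letters are given as a description, with no test. Among genes higher by at least 1 log2 25.5% had a single exon, against 18.7% of those lower by at least 1 log2 and 15.4% of all genes tested, and the median transcript lengths were 1515, 1705.5 and 1755 bases. ACGTG, on either strand, was present in the 300-base promoter window of 39.5% of the genes higher by at least 1 log2, 27.2% of the lower ones and 28.2% of all tested, and in 24.6% of all annotated nuclear genes. It was present in 16 of 26 windows of the ABA and dehydration list (61.5%), in 10 of the 15 largest increases and in 3 of the 15 largest decreases. LTP3, LTP4, WSD1, MLS and MRD1 held none in this window. The palindrome CACGTG, which contains ACGTG, was present in 14.2% of the higher, 7.10% of the lower and 8.90% of all tested windows. CCGAC, the core of the element bound by cold-induced DREB factors, was present in 16.4%, 15.2% and 16.4%, TTGAC, the core bound by WRKY factors, in 52.6%, 47.8% and 51.0%, and AAAATATCT, the evening element bound by CCA1, in 2.35%, 4.16% and 3.00%.

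The authors' deposited table of this contrast gave 5628 nuclear genes higher and 5243 lower in vcs sov at an adjusted p under 0.05, among 18470 with such a value. Of these, 4796 were also called higher here and 5128 also lower, and 0 had opposite calls. In the authors' deposited table the log2 fold changes were 5.60 for LEA7, 5.79 for CER1, 5.68 for LTI65, 5.85 for WSD1 and 3.85 for DCP2. On the same scale of the authors' deposited table IRT1 was at −3.40, FRO2 at −3.01, CYP82C4 at −2.88 and BCAT4 at −1.74, each smaller in size than here.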

How the data were processed

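RNA of whole seedlings was depleted of rRNA and made into stranded libraries, per the labels' protocols. Per the submitters' processing notes, the tools were TopHat2 2.0.12, HTSeq 0.6.1, R 3.1.0, Bowtie2 2.2.3, SAMtools and FastQC, and the genome build TAIR10, with no roles stated. The strand setting and the gene annotation were not given in the sources used here. The deposited table gives RPM for 28775 genes in 128 libraries, and 100% of its values were whole reads within 0.001 read, so read counts could be recovered from the deposited RPM. A deposited table of the authors' own comparison gives a log2 fold change and an adjusted p-value from DESeq2, per the file header, and RPKM by the authors, which was not used.

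RPM were rescaled to the nuclear genes (AT1G to AT5G), and a gene was kept where its mean in any genotype at 0 min reached 1 RPM as deposited. Differences were tested with limma 3.58.1 (trend, robust; R 4.3.3) on log2(nuclear RPM + 0.5) in all 16 libraries of 0 min, with genotype as the factor, two-sided, and with Benjamini-Hochberg adjustment over 19343 genes at 0.05. Libraries of 7.5 min were fitted in the same way. Slopes were fitted per genotype and replicate over 5 times from 7.5 to 120 min, giving 16 courses from 80 libraries. Symbols and promoters came from RefSeq for TAIR10.1, where 19333 of the 19343 genes matched, 8558 of them with a symbol. Its coordinates were used only with its own sequence. edgeR 4.0.16 and DESeq2 1.42.0 on recovered reads were alternatives. The fits were tested on simulated data with known changes. Few genes changed in these, against 55.4% called here, so they do not show how the fits behave at that share.

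The named genes are the 15 largest called changes in each direction among genes with a symbol, with at least 5 RPM in vcs or vcs sov and no overlap between the 4 and 4 libraries, with SOV and VCS, and up to 4 of the largest called changes, or the regulators, of each list. Other genes are named in the text as chosen after their values were seen, as were XRN4 and HSP101. Members and lists were chosen with earlier results of these data known. Of the list entries, 5 whose symbol did not match their identifier were dropped. Replicate libraries correlated at 0.975 to 0.991 within a genotype and differed by more than sampling noise (chi-square per degree of freedom 8.01 to 31.2), so each counts as 1 sample. The values of 1 list member are not reported here.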

Additional observations from a re-analysis of the deposited data

Results flagged for a closer look

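Most of the 38 genes described in full were chosen by their large vcs sov minus vcs, a term of the difference between the pairs. The choice made a call of that difference likely, so the calls of these genes are a description. Of all genes tested, 40.2% were called for that difference in either direction. The difference between the pairs, vcs sov minus vcs less sov minus WT, was past the threshold for all 38, in log2 nuclear RPM. Among the ABA, dehydration and lipid genes it was 6.68 for LEA7, 4.96 for RAB18, 5.29 for RD20, 4.84 for LTI65, 4.88 for LTP4, 5.13 for LTP3, 5.84 for CER1, 4.84 for ORP4C and 4.67 for WSD1. The other large increases had 5.19 for SAG29, 5.08 for CYS2, 4.81 for GASA3, 4.85 for TSPO, 4.91 for MLS and 4.46 for MRD1. The iron genes had −4.40 for CYP82C4, −4.43 for IRT1, −4.27 for FRO2 and −3.36 for NAS2. Among the further decreases it was −4.66 for ACD6, −3.58 for MLP328, −3.65 for MLP34, −3.76 for RL4, −3.46 for AMT1;3, −3.30 for EXPB3, −2.80 for BCAT4, −2.94 for CRK30, −3.50 for GH9B8, and −2.75 and −2.69 for the TPS-CIN loci AT3G25830 and AT3G25820. It was 0.58 for SOV (AT1G77680), 0.81 for VCS, 3.65 for DCP2, 3.80 for HAI1, 1.90 for CCA1, 2.25 for LHCB2.2, 1.27 for VND7 and −1.91 for SPCH.

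In 12 of 156 groups of 4 libraries 1 library stood apart from the other 3, where chance gives about 1 in 20. That rate does not apply to GASA3 in vcs and WT or to LTP4 in sov. There the other libraries had no read, so 1 or 2 reads were enough for the flag. Of the vcs sov libraries these were replicate 1 for AMT1;3 (2.38 nuclear RPM) and replicate 3 for CCA1 (62.4), and of the vcs libraries replicate 1 for GASA3 (0.183). In sov they were replicate 3 for ORP4C (10.4), replicate 1 for LTP4 (0.0878) and replicate 1 for VCS (120.0). In WT they were replicate 4 for GASA3 (0.0581), MLS (20.2) and RL4 (25.4), replicate 1 for TPS-CIN AT3G25830 (35.7), replicate 3 for DCP2 (14.8) and replicate 2 for HAI1 (1.48).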

How the results depend on the processing

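At 0 min the counts of higher and lower genes stayed within 1.5 times of 5144 and 5580 under a pseudocount of 0.1 or 1, a stricter or no filter, median centring, edgeR (5425 and 5657), DESeq2 (5674 and 5535), the 8 libraries alone and each left-out library (4739 to 5026 higher, 4922 to 5684 lower). RPM as deposited gave 7945 and 3450, took the 7.5 min count of lower genes to 3936 (5976 in nuclear RPM), and gave 4788 higher and 128 lower slopes. For sov minus WT, centring, edgeR and the replicate block gave 1 higher gene in place of 2, and leaving out a library 1 to 2. Slopes depended most on the settings: over 7.5 to 60 min 24 were higher and 5 lower, with 2168 lower or higher at an unadjusted p under 0.05, centring gave 557 and 911, and leaving out a course gave 1329 to 1991 and 106 to 173. The nuclear share difference was 9.48 to 10.8 points without a library (exact p = 0.0571, the smallest that 3 against 4 allows). Of 3003 values of 168 named genes under 18 alternatives, 2927 kept their direction and call, 76 lost the call and 0 reversed. Of 1440 list counts 101 moved past 1.5 times. The cause of these changes was not tested.

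Same-numbered vcs sov and vcs libraries deviated together with correlations of 0.07, 0.16, 0.16 and −0.08. Replicates 1 and 3 of vcs sov correlated best with their own number in vcs, and replicates 2 and 4 did not. These weak values do not settle whether the numbers pair the samples. With the replicate block 5523 genes were higher and 5856 lower at 0 min, against 5144 and 5580 without it. The nuclear share difference with the block was 10.2 points (exact p = 0.125, over sign changes of pairs). Depth limits genes with few vcs reads: the change of WSD1 was 5.85 with a pseudocount of 0.1 and 3.47 with 1, and that of GASA3 6.78 and 3.88.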
